A study of Homo sapiens with 172 samples.

Results

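Contact with the nuclear lamina was examined at 10 genes. They encode lamins, envelope membrane proteins and a small DNA-bridging protein (BANF1): LMNA, LBR, LMNB1, LMNB2, TMPO, LEMD3, BANF1, SUN1, SYNE1 and SYNE2. The genes were chosen by name, and each was represented by the 100 kb bins of hg19 that its position overlaps, 22 bins of the 26414 with signal. Together with 1 Mb on either side of each gene, 220 bins were described. The data are single-cell DamID maps of KBM7, a near-haploid human myeloid leukaemia line. All 172 labelled samples are haploid cells of clone 5-5, in which Dam methyltransferase fused to LaminB1 marks DNA that comes near the lamina. The fusion was stabilised with 0.5 nM Shield1 for 15 h, and the 2% smallest cells with both Fucci cell cycle reporters were sorted. These conditions apply to every cell, 1 clone stands for the line, and no second group exists, so there was no test between groups and no p-value was made from cells. The assay reads DNA, so the cell type could not be set against expressed markers.

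The table had columns for 168 samples. For 167 of them the best correlated column was the one whose number differs by 86, and each such pair was averaged as 1 cell, named by its lower number, giving 84 cells. A bin was called in contact in a cell when its observed over expected ratio was at least 1, and contact frequency is the percent of the 84 cells in contact. Cells had a mean of 27.8% ± 6.55 (SD, n = 84) of bins in contact. Between 7134 and 418937 reads were recovered for the deeper column of each cell. In 13 cells 1 read in a typical bin already gave a ratio above 1 in that column, before the columns were averaged. Cells 48, 54 and 56, set apart in earlier results, had correlations between adjacent bins of 0.350, 0.158 and 0.267, against a median of 0.705 over cells, and cell 69 had a mean ratio under 0.1 on chromosomes 7, 12 and 19. Without cells 48, 54 and 56 SYNE1 had a frequency of 49.2%, SYNE2 27.8% and each of the other 8 genes at most 4.94%, and without cells 63, 69 and 79, also set apart earlier, these values were 47.3, 27.2 and 6.17%. Intervals below are Clopper-Pearson 95% intervals over cells, exact for 1 bin. For a gene of several bins the mean over its bins took the place of a whole count of cells, so its interval is approximate. All intervals cover counting error only, and amplified reads may repeat the same molecule.

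The lamina is a meshwork of A-type lamins, encoded by LMNA, and B-type lamins, encoded by LMNB1 and LMNB2, beneath the inner nuclear membrane. Membrane proteins such as LBR, the LAP2 isoforms from TMPO and MAN1 from LEMD3 tie it to chromatin, partly through the small DNA-bridging protein encoded by BANF1. SUN proteins in the inner membrane and nesprins, the products of SYNE1 and SYNE2, in the outer membrane span the envelope and link the lamina to the cytoskeleton. Genome regions that touch the lamina are known to be mostly gene-poor and weakly transcribed.

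The nesprin genes SYNE1 and SYNE2 were contacted in many cells, and the other genes in few. In 8 of the 10 genes no bin reached a frequency of 20%. Their bins and the first of SYNE2 make 13 of the 22 gene bins (59.1%), near the 52.3% of all covered bins that lie under 20%. SYNE1 had a mean frequency of 48.6% over its 6 bins (interval 37.6 to 59.8%), and SYNE2 had 28.0% over its 4 bins (18.7 to 38.8%). SYNE1 was above 68.5% of all covered bins and SYNE2 above 57.3%, so SYNE2 was near the genome-wide mean of 27.8%. The next genes in order were LBR with 5.95% (1.96 to 13.4%), LEMD3 with 5.36% (1.63 to 12.6%) and TMPO with 4.76% (1.31 to 11.7%). LMNA had 2.98% (0.498 to 9.22%), LMNB1 1.19% (0.0301 to 6.45%) and SUN1 0.595% (0.000583 to 5.43%). LMNB2 and BANF1 were in contact in 0 of 84 cells, with an interval of up to 4.30% (a count of 3 cells would be 3.57%). The intervals of SYNE1 and SYNE2 overlapped between 37.6 and 38.8%, and those of the other 8 genes overlapped from each to the next. The interval of SYNE2 did not overlap with that of LBR, the gene below it, or with those of the 7 genes lower still.

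Of the 22 gene bins, 10 (45.5%) had a frequency under 5%, against 36.7% of all covered bins. At the other end, 9 gene bins (40.9%) reached 20% or more, against 47.7% of all covered bins, and all 9 belonged to SYNE1 and SYNE2. A frequency of 50% or more was seen in 3 gene bins (13.6%), all of SYNE1, against 30.7% of covered bins. The median over the gene bins was 7.74%, and over all covered bins it was 16.7%. These shares rest on the long genes, since SYNE1 and SYNE2 contribute 6 and 4 of the 22 bins.

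**Figure D1:**
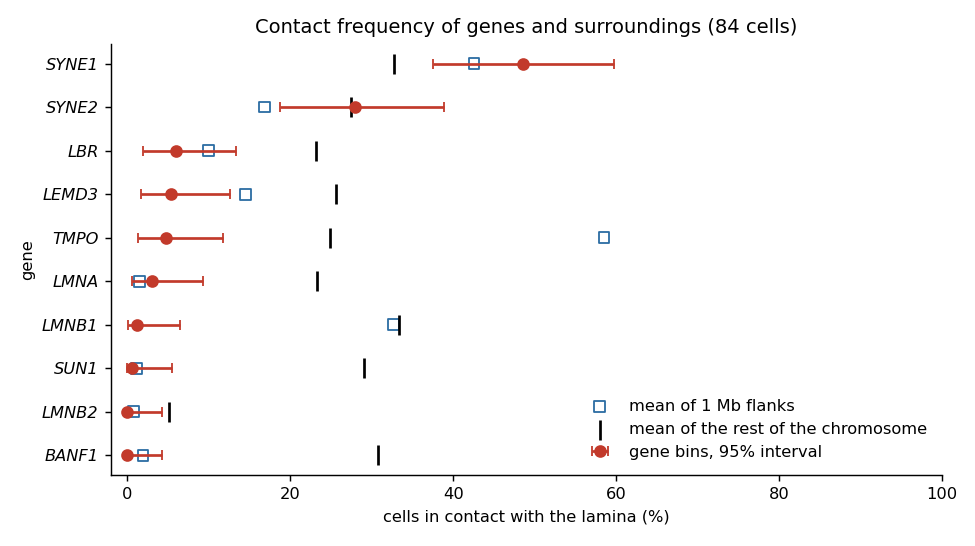
Contact frequency (x axis, percent of 84 cells) of each gene (y axis) as points with 95% intervals. Squares give the mean of its 1 Mb flanks and vertical bars that of the rest of its chromosome. SYNE1 and SYNE2 stand at 48.6% and 28.0%, whereas the other 8 genes lie at 5.95% or lower, left of the mean of their chromosome, and TMPO and LMNB1 also lie far left of their flanks.

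The promoters of 3 genes are shown because the starts of these genes lie in contrasting places: SYNE1 starts in the most often contacted of all 22 gene bins, and LMNB1 and TMPO start in low bins with contacted DNA on both sides. The sequences are those of RefSeq on GRCh38.p14, from 250 bases before to 50 after the outermost listed start, and GATC, the palindromic site that Dam methylates and DpnI cuts, is in capitals.
SYNE1 (chr6:152637313-152637612, - strand): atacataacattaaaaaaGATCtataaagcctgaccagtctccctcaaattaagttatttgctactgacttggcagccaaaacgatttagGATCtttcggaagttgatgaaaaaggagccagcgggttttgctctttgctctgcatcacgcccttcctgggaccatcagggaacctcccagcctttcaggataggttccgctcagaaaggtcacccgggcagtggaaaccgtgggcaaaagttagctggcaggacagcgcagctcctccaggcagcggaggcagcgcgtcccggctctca
LMNB1 (chr5:126776373-126776672, + strand): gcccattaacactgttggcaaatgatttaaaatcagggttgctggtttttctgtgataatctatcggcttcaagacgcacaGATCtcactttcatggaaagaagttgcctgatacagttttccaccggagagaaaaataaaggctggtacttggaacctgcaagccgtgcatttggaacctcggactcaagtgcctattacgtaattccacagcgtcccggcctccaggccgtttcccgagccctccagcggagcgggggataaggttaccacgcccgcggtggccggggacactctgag
TMPO (chr12:98515323-98515622, + strand): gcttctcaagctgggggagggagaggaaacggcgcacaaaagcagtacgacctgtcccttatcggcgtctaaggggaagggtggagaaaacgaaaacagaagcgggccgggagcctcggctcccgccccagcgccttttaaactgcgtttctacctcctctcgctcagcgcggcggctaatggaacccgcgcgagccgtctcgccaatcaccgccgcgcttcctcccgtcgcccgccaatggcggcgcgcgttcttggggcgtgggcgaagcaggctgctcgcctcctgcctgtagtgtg
The SYNE1 window holds 2 GATC sites, the LMNB1 window 1 and the TMPO window 0, and 41.7% of 35097 promoters of this length hold at least 1. CpG counts were 12 for SYNE1, 16 for LMNB1 and 34 for TMPO, against a median of 14 over all promoters. The promoters not shown did not all keep to this order. SYNE2, also often contacted, had 0 GATC sites and 38 CpG, and LBR, seldom contacted, had 1 and 8. LMNA, LMNB2, LEMD3 and BANF1 had 0 GATC sites, with 23, 38, 29 and 23 CpG. A link between promoter sequence and contact was not tested. A bin is far longer than a promoter, so the ratios do not report on these windows by themselves. Promoters were found for 9 of the 10 genes.

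The lamin genes were nearly free of contact. LMNA, at 1:156050000 to 156110000, spans a bin contacted in 2 of 84 cells (2.38%) and a bin contacted in 3 (3.57%). The mean ratio over its bins was 0 in the lowest cell, 0 in the median cell and 1.59 in the highest, cell 20. Both bins were without reads in 58 cells, and each of the 5 cells in contact had 2 reads in the contacted bin of its deeper column. Its flanks were equally low, with a mean of 1.49% and a highest bin of 4.76%, against 23.2% for the rest of chromosome 1.

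LMNB1, at 5:126110000 to 126180000, encodes the lamin that is fused to Dam in these cells. Its bin was at 0 in 69 cells, between 0 and 1 in 14 and in contact only in cell 48, at a ratio of 1.12 from 11 reads. Cell 48 is a deep cell, with 264841 reads, and is 1 of the 3 with a low correlation between adjacent bins. Unlike LMNA, LMNB1 lay within reach of contacted DNA. On the side of lower coordinates the frequency went down stepwise from 63.1% at 125500001 to 125600000 through 42.9, 26.2, 19.0 and 13.1% to 2.38% beside the gene. On the other side 7 bins of 2.38 to 14.3% were followed by 61.9% at 126900001 to 127000000 and 70.2% in the next bin. The flank mean was 32.6%, and LMNB1 was 31.4 ± 21.8 percentage points lower (SD over 84 cells). Against flanks of 0.5 Mb, which hold fewer of the contacted bins, the difference was -13.5 points.

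LMNB2, at 19:2420000 to 2460000, had reads in 7 cells, with a highest ratio of 0.399 in cell 48, and no contact. Its surroundings were low throughout, with no flank bin above 3.57%, and the rest of chromosome 19 averaged 5.05%. LMNB2 was 5.05 ± 4.26 points below its chromosome, and LMNA and LMNB1 were 20.3 ± 13.8 and 32.2 ± 16.3 points below theirs (SD over 84 cells). With no contact at LMNB2, its difference is the level of chromosome 19 itself. Against the median bin of the chromosome in place of the mean, the differences were -4.17 points for LMNA, -2.38 for LMNB2 and -31.0 for LMNB1.

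**Figure D2:**
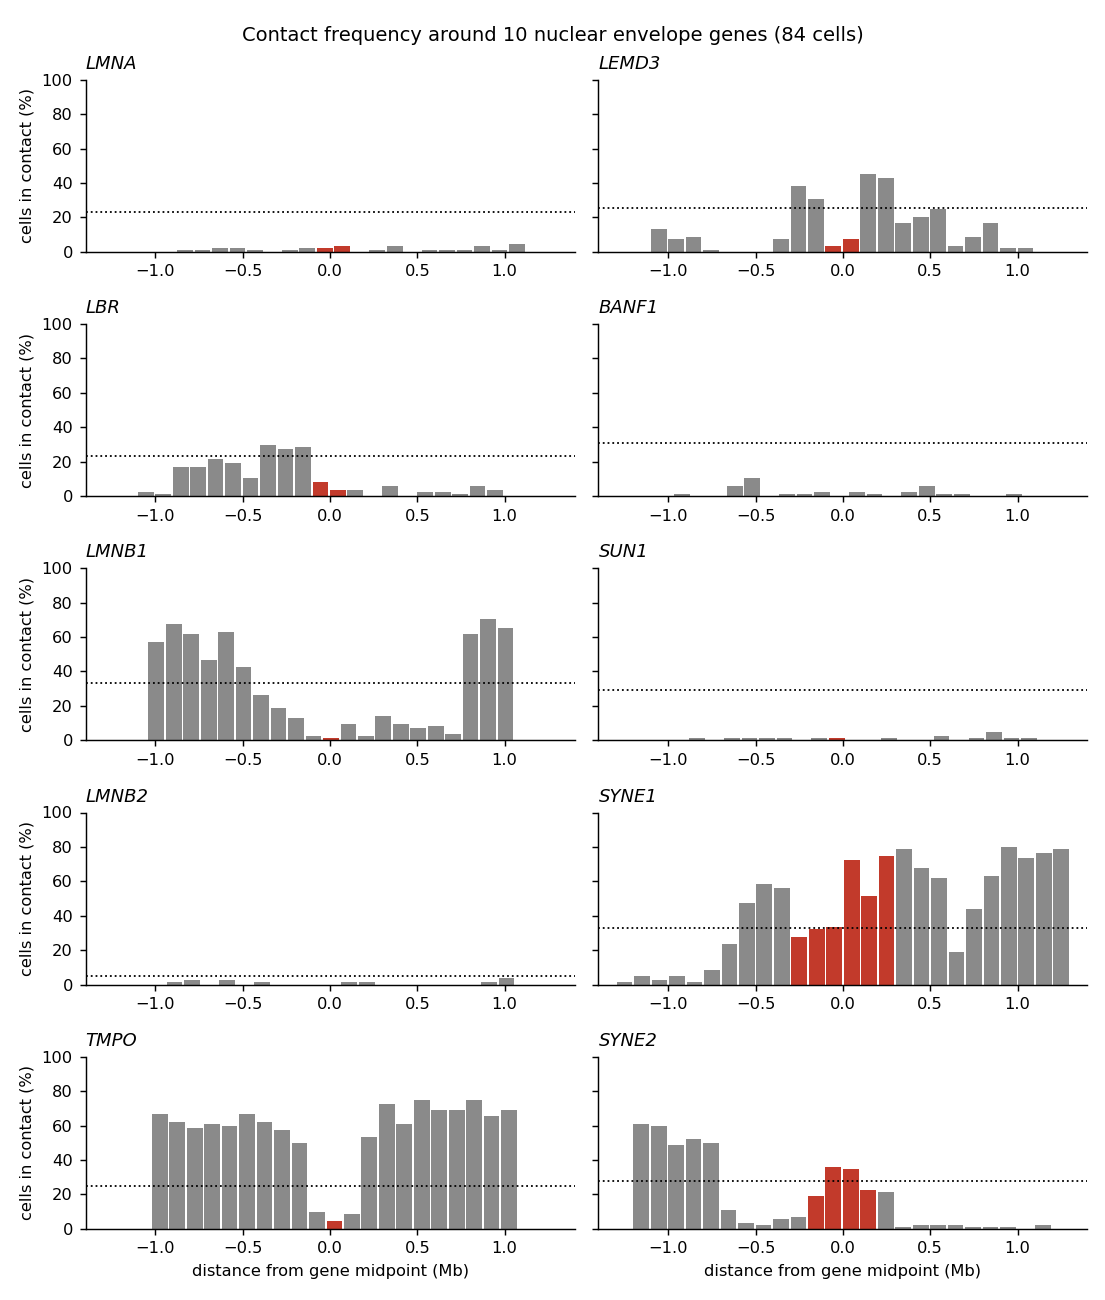
Contact frequency (y axis, percent of 84 cells) of 100 kb bins by distance from the gene midpoint (x axis, Mb) for the 10 genes, with gene bins in red, flank bins in grey and the mean of the rest of the chromosome as a dotted line. LMNA, LMNB2, BANF1 and SUN1 sit in low surroundings, LMNB1, TMPO and LEMD3 in gaps between contacted bins, LBR at the edge of a contacted stretch, SYNE2 on a stretch of 19.0 to 35.7% and SYNE1 beside bins that reach 79.8%.

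The genes for chromatin-tethering membrane proteins were low as well, but each had contacted DNA nearby. TMPO, at 12:98900000 to 98950000, was the clearest case. Its bin was contacted in 4 of 84 cells, cells 6, 9, 17 and 29, with a median ratio of 0 and a highest of 2.63. Beside it lay bins of 9.52% and 8.33%, and directly beyond these the frequency was 50.0% on one side and 53.6% on the other. From there outwards it stayed between 50.0 and 75.0% to the ends of both flanks. The gap is 300 kb wide, and TMPO was 53.8 ± 35.4 points below its flanks (SD over 84 cells). TMPO was lower than its flanks in 76 cells and higher in 4. Its bin is either in contact or not, so by construction it could be higher only in the 4 cells in contact. In any other cell it was lower whenever a flank bin was in contact, so these counts add little to the 4 of 84. In the whole genome 18 such gaps of at most 3 bins under 20%, set directly between bins of 50% or more, were found, with 25 of 13822 bins under 20% (0.181%), and TMPO was the only gene of the 10 in one. This description of gaps was chosen after their values were seen.

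Cells were also set apart by contact on both sides of the gaps at TMPO and LMNB1. TMPO was in contact in 4 of 84 cells and LMNB1 in 1, so low shares in the selected cells follow from these totals. At TMPO 33 cells had both bordering bins in contact, with median ratios of 2.43 and 2.37 there, and the gene's bin was in contact in 3 of them (9.09%, interval 1.92 to 24.3%). Its median ratio in these cells was 0, with no reads at all in 19. Of the 21 cells with contact on 1 side 0 had the gene in contact, and of the 30 with contact on neither side 1 did. At LMNB1 36 cells had both of the nearest bins of 50% or more in contact, 1300 kb apart, and the gene's bin was in contact in 0 of them (interval up to 9.74%). The gene's bin is 1 of the 13 bins of that gap, so all 13 were in contact in 0 of these 36 cells by construction. At least 1 bin of the gap was in contact in 29 of the 36 cells. The bordering bins are at 100% in these cells by the way the cells were selected.

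**Figure D3:**
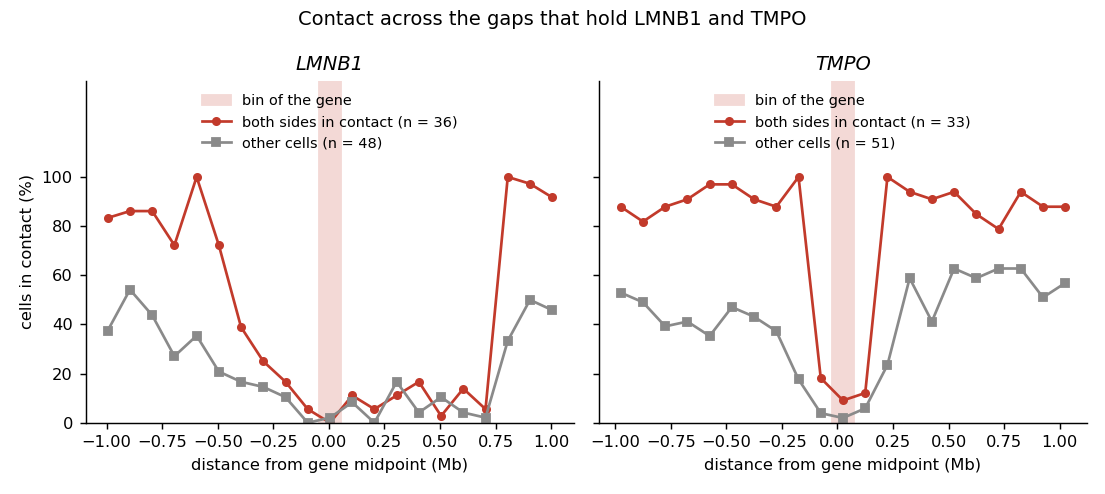
Percent of cells in contact (y axis) by distance from the gene midpoint (x axis, Mb) around LMNB1 and TMPO, in cells with both bordering bins in contact (red, 36 and 33 cells) and in the remaining cells (grey, 48 and 51 cells), with the gene's bin shaded. The bordering bins are at 100% by selection, and the gene's bin is at 0% and 9.09% in the selected cells.

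LEMD3, at 12:65560000 to 65650000, lay in a narrower gap. Its bins had 3.57% and 7.14%, between 31.0% on the side of lower coordinates and 45.2% on the other, both directly adjacent. Of 17 cells with both adjacent bins in contact, 3 had the gene in contact in at least 1 bin, against 5 of 30 with 1 side and 1 of 37 with neither. The highest mean ratio was 1.75, in cell 28, and both bins were without reads in 48 cells. LBR, at 1:225590000 to 225620000, stood at an edge: the bin before it had 28.6%, the bin with its first 10 kb by coordinate 8.33%, and the bin with the remaining 20 kb and the gene's start 3.57%. The flank on the contacted side averaged 17.4% and the other 2.50%. The highest ratio at LBR, 10.6 in cell 56, came from 2 reads in a column of 11412 reads and 2 in one of 3178, and cell 56 is another of those 3 cells.

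BANF1, at 11:65760000 to 65780000, had reads in 16 cells, at ratios of at most 0.514, and contact in none. Its flanks averaged 1.90%, with 10.7% as the highest bin, while the rest of chromosome 11 had 30.8%. The difference of 30.8 ± 10.3 points from the chromosome is close to the 32.2 points at LMNB1, and no contacted stretch lay within 1 Mb of BANF1. Against the median bin of the chromosome it was -23.8 points. With no contact at BANF1 in any cell, its differences from the chromosome are the level of the chromosome itself. BANF1 was thus below the share of its chromosome in contact in all 84 cells by construction.

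The LINC complex genes differed among themselves. SUN1, at 7:850000 to 920000 near the chromosome end, was in contact in cell 19 alone, on a single read in the shallowest cell, with 7134 reads. Both of its bins were without reads in 75 cells, and its 18 flank bins averaged 1.06%, against 29.1% for the rest of chromosome 7. SYNE1 and SYNE2, whose giant spectrin-repeat proteins reach from the envelope to the cytoskeleton, were both contacted in many cells.

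SYNE1, at 6:152440000 to 152960000, had at least 1 bin in contact in 74 of 84 cells and all 6 in 8. The mean ratio over its bins was 0 in the lowest cells, 1.35 in the median cell and 9.50 in cell 79, the highest. In order of coordinate its bins had 27.4, 32.1, 33.3, 72.6, 51.2 and 75.0% of cells in contact. SYNE1 is transcribed from high to low coordinates, so the bin with its start, at 152900001 to 153000000, was the most contacted, above 97.9% of all covered bins. The 3 bins on the side of the start had a mean of 66.3% and the 3 on the side of the gene's end 31.0%, a difference of 35.3 ± 38.1 points (SD over 84 cells). The start side had more bins in contact in 53 cells, the end side in 3, and 28 cells had equal numbers. By ratio the start side was higher in 75 cells, with a mean of 2.23 ± 2.16 against 0.993 ± 1.33 (SD, n = 84). This division was made after the values were seen and has no test.

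The landscape around SYNE1 was uneven. Beyond the start the frequency was 78.6% in the next bin and, after a dip to 19.0% at 153300001 to 153400000, reached 79.8% at 153600001 to 153700000. Beyond the gene's end it was 56.0 and 58.3% in the nearest bins, and at most 8.33% from 151400001 to 152000000. SYNE1 thus lay 6.05 ± 21.8 points above its flanks and 15.8 ± 28.4 above the rest of chromosome 6 (32.8%), in both cases less than the spread between cells. It was above its chromosome in 60 cells and below in 24.

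SYNE2, at 14:64310000 to 64700000, was contacted in at least 1 bin in 43 cells and in all 4 in 6. Its bins had 19.0, 35.7, 34.5 and 22.6% of cells in contact, with overlapping intervals. The mean ratio was 0 in the lowest cells, 0.461 in the median cell and 4.80 in cell 56, the highest. By the rounded position used here, the gene's start, at the low coordinate, lay in the bin of 19.0%. The order seen along SYNE1 was thus not repeated. The 4 bins and the next one, with 21.4%, formed a stretch of their own. On the side of the start 5 bins had 2.38 to 10.7%, with 48.8 to 60.7% beyond them, and on the other side no bin exceeded 2.38%. SYNE2 was 11.1 ± 27.6 points above its flanks and 0.471 ± 32.0 points above the rest of chromosome 14, which was at 27.5%. Against flanks of 0.5 Mb the first difference was 22.0 points. The second changed sign in 6 alternatives, down to -4.06 points in even cells, and was 12.5 points against the chromosome median, so the side of its chromosome's level on which SYNE2 lies is not settled.

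**Figure D4:**
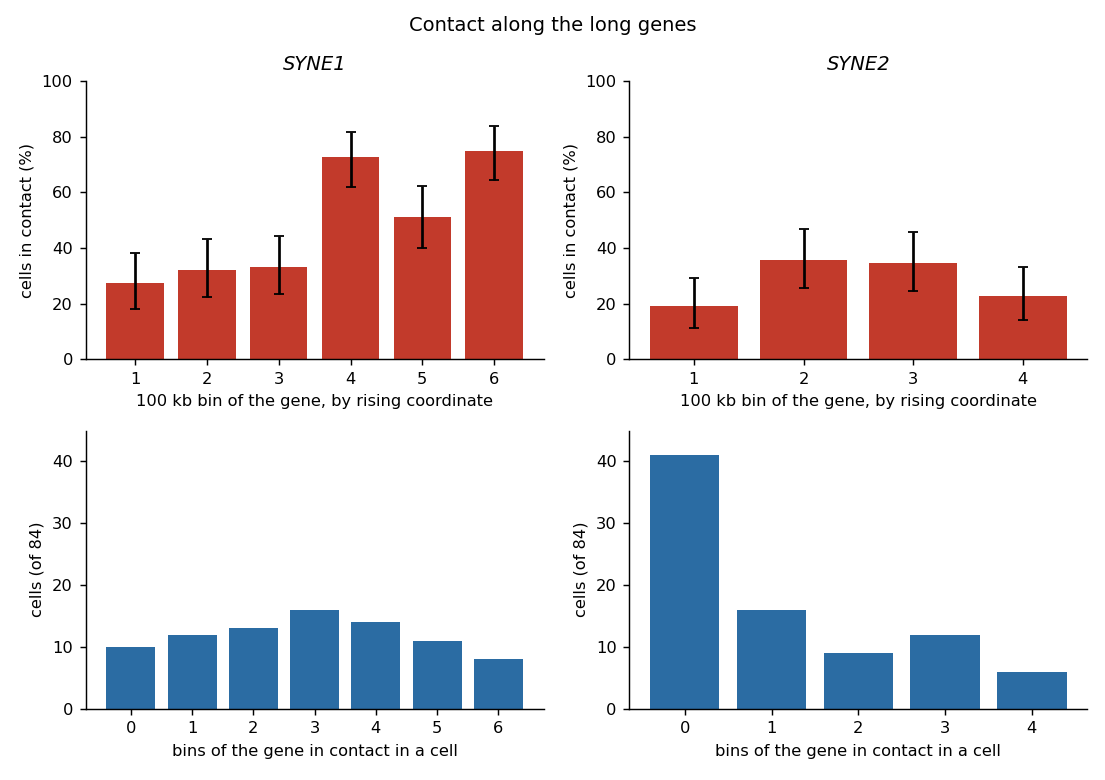
Top, contact frequency (y axis, percent of 84 cells, with exact 95% intervals) of each 100 kb bin of SYNE1 and SYNE2 in order of coordinate (x axis). Bottom, number of cells (y axis) by how many bins of the gene were in contact (x axis): cells with SYNE1 spread from 0 to 6 bins with 16 cells at 3, whereas 41 cells had no bin of SYNE2 in contact.

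Contact of SYNE1 was mostly partial: 10 cells had no bin in contact, 8 had all 6 and the other 66 had some. For SYNE2 41 cells had no bin in contact and 6 had all 4. The fourth and sixth bins, with 72.6 and 75.0%, were both in contact in 53 cells, while the fifth, between them, was in contact in 43 of the 84. All 27 cells with the second bin in contact also had the fourth in contact. Correlations over cells of the log2 ratios (with 0.1 added) ran from 0.323 to 0.625 between bins of SYNE1 and from 0.334 to 0.597 between bins of SYNE2. The bins of a cell share its library and depth, so these values describe the 84 cells only.

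Runs of consecutive contacted bins through a gene differed in length. They had a median of 500 kb at SYNE1 and 200 kb at SYNE2, with longest runs of 2400 and 2500 kb. At LMNA all 5 contacts were isolated 100 kb bins, as were the only contacts of LMNB1 and SUN1. At TMPO 3 of 4 were isolated and the other, in cell 6, ended a run of 1300 kb that came from the side of lower coordinates and stopped at the gene's bin. At LBR and LEMD3 the medians were 400 and 300 kb, and 3 of the 9 cells in contact had an isolated bin at either gene.

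Contacts at the 8 low genes were few and mostly shallow. They amounted to 29 of 672 combinations of gene and cell (4.32%), in 23 cells, each counted when any bin of the gene was in contact. Over all covered bins a mean of 27.8% were in contact per cell. The 8 genes were grouped by their low frequencies, so a low total follows from the grouping. Of the 29, 18 rested on at most 2 reads in the deeper column, and 15 were in cells of under 50000 reads. The 35 cells with at least 100000 reads had 6 contacts in 280 combinations (2.14%), and the 49 shallower cells had 23 in 392 (5.87%). Over all covered bins the shallowest cell, cell 19, had 14.5% in contact and the deepest, cell 36, had 38.5%. The share over all bins was not computed for these groups of cells. How far depth sets the difference between them was not tested. Cell 48 had the most, with LBR, LMNB1 and LEMD3, and cells 48, 54 and 56 together held 5 of the 29. All 4 contacts at TMPO were in cells 1 to 29, where the frequency was 13.8%, and none in cells 30 to 86.

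**Figure D5:**
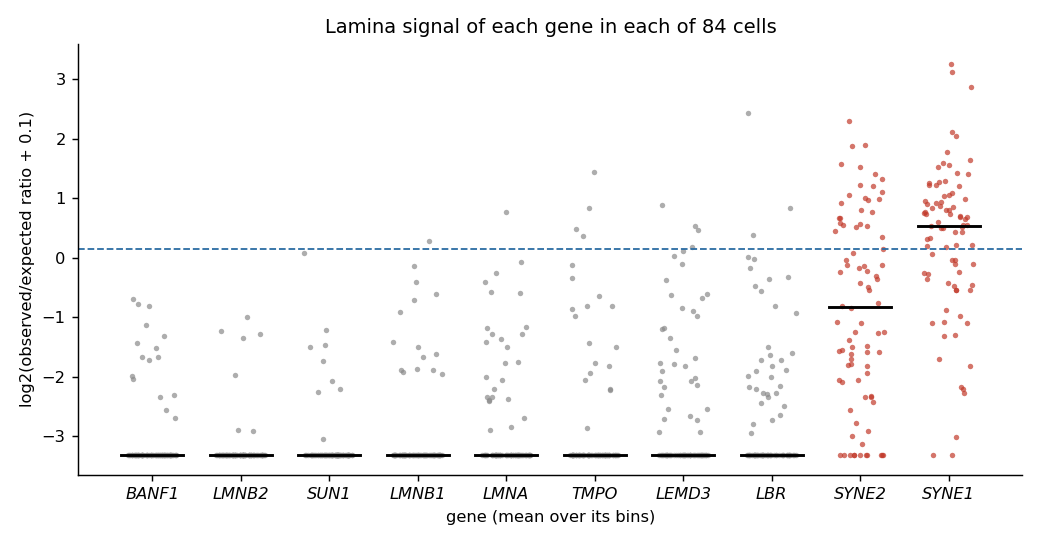
Mean observed over expected ratio of each gene (x axis, in order of contact frequency) in each of 84 cells, on the scale log2(ratio + 0.1) (y axis), with medians as black bars and the contact cutoff of 1 as a dashed line. Most cells lie at the floor, which is a ratio of 0, for the 8 low genes, whereas the median is 0.461 for SYNE2 and 1.35 for SYNE1.

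The signal at a gene followed the contact share of its own chromosome to differing degrees. Over the 84 cells, the log2 ratio of SYNE1 correlated at 0.503 with the share of the rest of chromosome 6 in contact and at 0.311 with that of the other chromosomes. For SYNE2 the values were 0.466 and 0.376, and for LEMD3 0.466 and 0.486. These are the genes with the highest values for their own chromosome, and the others ran from 0.210 for SUN1 to 0.434 for LMNB2. SYNE1 and SYNE2 also correlated with the logarithm of read number, at 0.418 and 0.378. Cells with a mean ratio of at least 1 at SYNE1 (54 cells) had 34.6% ± 10.2 of chromosome 6 in contact, against 29.5% ± 7.37 in the other 30. For SYNE2 the shares of chromosome 14 were 31.3% ± 7.73 in 27 cells and 25.7% ± 9.58 in 57. These differences were smaller than the spread between cells.

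The 10 genes showed little joint variation. Among 45 combinations of genes the highest correlations of log2 ratios over cells were 0.483 for TMPO and LEMD3, both on chromosome 12, 0.350 for LMNB1 and LMNB2, and 0.308 for LMNA and LEMD3. The lowest were -0.0997 for BANF1 and SYNE2, -0.0599 for LBR and SYNE1, and -0.0487 for LMNB1 and SYNE1. All values come from cells that share depth across genes, and most cells are at 0 for 8 of the genes. SYNE1 and SYNE2 correlated at 0.123. In 39 cells both had a bin in contact, in 35 only SYNE1, in 4 only SYNE2 and in 6 neither. LMNA and LBR, on the same chromosome, were both in contact in 1 cell, and TMPO and LEMD3 also in 1.

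Other genes of the nuclear envelope, listed with some for chromatin proteins (CBX1, CBX3, CBX5 and HDAC3), could be placed by chromosome only. Of 30 listed, among them EMD for emerin, SUN2, ZMPSTE24 for the prelamin A protease and nucleoporin genes, 28 lay on chromosomes with a value of their own. The mean contact frequency of their home chromosomes had a median of 25.4% and ranged from 4.89% for SYNE4 on chromosome 19 to 37.2% for EMD on X. The median for the 10 genes described here was 26.4%, against 25.4% for the other genes. The genome-wide mean was 27.8%, and the home chromosomes of 12 of the 28 genes and of 4 of the 10 genes were above it. These values say nothing of the genes' own contacts.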

How the data were processed

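The authors deposited 1 table, in which each value is a ratio, observed over expected, for a 100 kb bin, per the table's name and values. Per the submitters' processing notes, cutadapt and Bowtie2 2.1.0 were used with hg19. How duplicates were handled and what the expectation rests on is not given in the sources used here. Columns exist for 168 of the 172 labelled samples, and the remaining 4 are not analysed here. Bins without a value, at 0 in every column or on Y were left out, which kept 26414 of 30376.

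Columns whose numbers differ by 86 were averaged as 1 cell. Reads were worked back as whole multiples of a step per bin and column: all values above 0 came out whole within 0.02. The recovered expectation had a median of 316 per bin over all covered bins and 304 over the gene bins. On a simulated table of 26382 bins, 100% of values were recovered. That table was drawn from the recovered reads, so it does not test the real units.

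A gene's frequency is the mean over its bins, with Clopper-Pearson intervals for 84 cells. Positions are the rounded hg19 positions given for this work. Strands, promoters and home chromosomes are from RefSeq on GRCh38.p14, and no coordinates were carried between builds. All 10 genes are named, with the 3 most and 3 least alike combinations of genes. The genes, lists and alternatives were chosen with earlier results of these data known. Alternatives covered the cutoff, scaling, columns, subsets of cells, gene summary, flank width and chromosome median. Python 3.11.15, NumPy 2.4.6, pandas 2.3.3, SciPy 1.17.1 and matplotlib 3.10.9 were used.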

Additional observations from a re-analysis of the deposited data

How the results depend on the processing

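Both SYNE genes stayed above the other 8 genes in all 18 alternatives that give gene frequencies, 2 of which, by read number, were added after seeing the data. SYNE1 was above SYNE2 in 17 and below it when only the bin of the gene midpoint was used, at 33.3 against 34.5%. No alternative brought any of the 8 above 13.8%. Of 513 values 397 stayed within the interval of the reported value (for the count of bins, within 1.5 times it), and of 62 under the 2 alternatives by read number 45 did.

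At a cutoff of 0.5 SYNE1 had 64.3%, SYNE2 43.2% and LEMD3 13.1%. At a cutoff of 2 they had 28.4, 14.6 and 0.595%, LBR had 0.595%, TMPO 1.19%, LMNB1 and SUN1 0%, and 4 gene bins in place of 9 reached 20%. At 1.5 LMNB1 had 0%. Higher cutoffs lower frequencies by construction. With any bin counted SYNE1 had 88.1% and SYNE2 51.2%, and by mean ratio SYNE1 had 64.3% and SUN1 0%. LMNB1 had 0% in odd cells, in cells 1 to 29, under 100000 reads and without cells 48, 54 and 56, since its contact is in cell 48. SUN1 had 0% in even cells, in cells 30 to 86, in cells with reads in at least the median share of bins and at 100000 reads or more, since its contact is in cell 19. LMNA also had 0% in the last 2 of these. TMPO had 13.8% in cells 1 to 29, 0% in cells 30 to 86 and 0% at 100000 reads or more, and the cause was not tested. The difference from the flanks changed sign for SYNE1 with the midpoint bin (-9.23 points), for LMNA in 5 alternatives (to -1.19 points in cells with reads in at least the median share of bins), for SUN1 in 4 (to 0.529) and for LBR with any bin counted (0.774). That from the chromosome changed sign for SYNE2 in 6. Against the chromosome median the differences were -1.19 points for LBR, -4.76 for TMPO, -5.36 for LEMD3 and -22.0 for SUN1, and against flanks of 0.5 Mb -17.3 for LEMD3 and -2.74 for BANF1. No paired analysis was possible because all cells form 1 group.

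Depth limits absence. In 13 cells 1 read in a typical bin gave a ratio above 1 in the deeper column, before the columns were averaged. A bin without reads in a shallow cell may still have been near the lamina.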
